A study of Mus musculus with 26 samples.

Results

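The genes described here are 34 members of the interferon response and of MHC class I antigen presentation in mouse. They were chosen by symbol, by a rule that uses no measured value, as the rows of the deposited count table whose Ensembl gene identifier maps to a listed name. All 34 were found among the 54532 genes of the table. They comprise 7 class I heavy chains, 4 genes of the light chain and peptide loading, 4 immunoproteasome genes, 5 transactivators, 13 antiviral or regulatory effectors and 1 RNA sensor, and 12 of the 34 lie on chromosome 17. The series profiled polyadenylated RNA from untreated mice by RNA-seq, in tissue taken at day 0. Immunoprecipitated (IP) astrocyte RNA came from the retina in 6 libraries, from the optic nerve head (ONH) in 7 and from the myelinated optic nerve proper (ONP) in 7, and 6 input libraries hold the unselected retinal RNA. The study asked what sets retinal astrocytes apart from the rest of the retina and from the astrocytes of the nerve. The strain, genotype, age and sex of the animals, the driver of the IP tag and any pooling of animals are not given in the sources used here.

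Interferons are secreted proteins that bind receptors coupled to JAK kinases, and the STAT and IRF factors these activate switch on a shared program of antiviral genes. Class I heavy chains pair with beta-2 microglobulin and carry peptides to the cell surface, where cytotoxic T cells read them. The peptides are cut by the immunoproteasome, pumped into the endoplasmic reticulum by the TAP transporter and loaded with the help of tapasin. In the healthy central nervous system class I levels are low compared with most organs, and astrocytes and microglia raise the program when exposed to interferon.

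Library depth ran between 11164619 and 27431026 assigned reads. The 12 libraries of batch 1 are ONH and ONP replicates 1 to 6, and batch 2 holds the 12 retinal libraries with replicate 7 of ONH and of ONP, which the submitters added to bridge the batches. Y-linked genes summed to at least 702 counts in each batch 1 library and to at most 1 in each batch 2 library, so sex goes with batch. Retina input replicates 1 and 2 stood apart, with 8.16% and 15.2% of reads from mitochondrial genes and 16782 and 17082 genes detected, against 19835 to 20702 genes in the other inputs. ONH replicate 7 carried 40850 CPM of summed rod photoreceptor markers, against 36.2 to 670 CPM in the other ONH libraries. Summed astrocyte markers reached 20490, 30520 and 35100 CPM in retinal IP replicates 2, 3 and 4 but 6745, 7668 and 9738 CPM in replicates 1, 5 and 6, against 4040 to 6654 CPM in the inputs. In the nerve, astrocyte markers summed to 7174 to 34400 CPM in ONH IP and 12840 to 41440 CPM in ONP IP. Oligodendrocyte markers there summed to 27740 to 72550 CPM in ONH IP and 36490 to 123300 CPM in ONP IP. Nothing in the labels says that libraries came from separate animals, so every p-value measures the spread between libraries. In bulk RNA, fewer cells of a type and less RNA per cell cannot be told apart.

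The promoters of 30 of the 34 members were found in RefSeq (GRCm38.p6), as windows of 300 bases that start 250 bases before the transcription start. The interferon-stimulated response element, searched on both strands as GAAA, any pair of bases and GAAA again, was present in the windows of 14 of 30 members (46.7%), against 3.99% of all 27025 genes with a window. The gamma-activated site, searched as TTCNNNGAA on both strands, was present in 6 of 30 members, against 9.55% of all genes. Matches of either motif can overlap each other. The windows of 6 genes are shown. The effectors Isg15 and Bst2, the light chain B2m and the heavy chains H2-D1 and H2-Q10 were called between tissues, and Ifit3 is an abundant effector that was called in none of the 4 comparisons. Capitals mark motif matches, and windows without capitals hold neither letter pattern.
Isg15, chr4:156200769-156201068, minus strand: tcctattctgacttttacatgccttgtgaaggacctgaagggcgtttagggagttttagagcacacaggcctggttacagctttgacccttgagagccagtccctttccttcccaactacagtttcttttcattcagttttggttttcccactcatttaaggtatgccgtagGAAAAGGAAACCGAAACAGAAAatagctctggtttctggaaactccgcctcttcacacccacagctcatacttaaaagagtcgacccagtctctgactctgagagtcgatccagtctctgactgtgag
Ifit3, chr19:34583279-34583578, plus strand: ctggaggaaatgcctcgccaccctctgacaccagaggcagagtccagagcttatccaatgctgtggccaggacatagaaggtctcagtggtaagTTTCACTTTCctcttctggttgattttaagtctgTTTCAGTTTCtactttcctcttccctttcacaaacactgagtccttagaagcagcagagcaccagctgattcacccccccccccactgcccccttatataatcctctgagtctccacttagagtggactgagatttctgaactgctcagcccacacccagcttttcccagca
Bst2, chr8:71537423-71537722, minus strand: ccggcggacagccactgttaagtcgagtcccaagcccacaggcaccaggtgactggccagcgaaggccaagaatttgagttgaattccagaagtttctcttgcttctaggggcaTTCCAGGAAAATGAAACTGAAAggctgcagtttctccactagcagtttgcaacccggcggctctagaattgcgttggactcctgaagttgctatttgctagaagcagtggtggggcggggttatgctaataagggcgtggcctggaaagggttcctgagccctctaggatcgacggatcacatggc
B2m, chr2:122147437-122147736, plus strand: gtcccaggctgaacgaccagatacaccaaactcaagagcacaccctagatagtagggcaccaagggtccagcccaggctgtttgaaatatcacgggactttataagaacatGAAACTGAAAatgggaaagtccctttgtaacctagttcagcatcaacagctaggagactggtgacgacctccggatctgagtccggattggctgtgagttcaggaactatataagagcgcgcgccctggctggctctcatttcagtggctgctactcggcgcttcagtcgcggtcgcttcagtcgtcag
H2-D1, chr17:35262844-35263143, plus strand: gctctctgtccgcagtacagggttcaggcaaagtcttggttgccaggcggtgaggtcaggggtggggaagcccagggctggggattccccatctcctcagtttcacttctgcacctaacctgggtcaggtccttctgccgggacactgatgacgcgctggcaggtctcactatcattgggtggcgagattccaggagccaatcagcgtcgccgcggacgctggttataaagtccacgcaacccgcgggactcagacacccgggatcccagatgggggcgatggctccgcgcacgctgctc
H2-Q10, chr17:35469839-35470138, plus strand: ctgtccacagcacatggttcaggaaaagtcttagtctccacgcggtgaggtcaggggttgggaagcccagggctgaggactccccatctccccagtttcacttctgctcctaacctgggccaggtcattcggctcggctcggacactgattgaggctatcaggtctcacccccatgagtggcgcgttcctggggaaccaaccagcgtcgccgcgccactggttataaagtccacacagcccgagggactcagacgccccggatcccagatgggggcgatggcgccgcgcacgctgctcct
Isg15 held 3 overlapping response-element matches that begin 78, 72 and 66 bases before the start. Ifit3 held 2 on the opposite strand, the farther beginning 156 bases before the start. Bst2 held both motifs side by side, with a gamma-activated site 136 bases before the start that overlaps the first of 2 response elements. Neither pattern was found in the windows of H2-K1, H2-D1, H2-Q4, H2-Q6, H2-Q7 or H2-Q10, whereas the window of H2-T23 held 1 response element. The windows of those heavy chains without a match do hold tttcacttct, which differs from the opposite-strand response element pattern only in its last letters. Such near variants were not searched for, so a missing match does not mean that no response element is present. The windows of Psmb9 and Tap1, which are transcribed away from each other, share 275 of their 300 bases. A match is a description of letters and not evidence of binding.

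Levels are given as CPM, the counts scaled to a common library size, after TMM scaling over the 26 libraries, and 3 values for a group are its lowest, median and highest library. The highest group mean was in ONH IP for 30 of the 34 members, in retinal IP for H2-Q7, H2-Q10 and Stat2, and in retina input for Psme1. The lowest group mean was in retina input for 30 members. Per kilobase of annotated exon, the most abundant members in ONH IP were Ifitm3 at 738 CPM per kilobase, H2-D1 at 693, Ifit3 at 368 and B2m at 311. In retinal IP the leading members on the same scale were B2m at 195 CPM per kilobase, H2-D1 at 136, Ifit3 at 129 and Ifitm3 at 105.

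**Figure D1:**
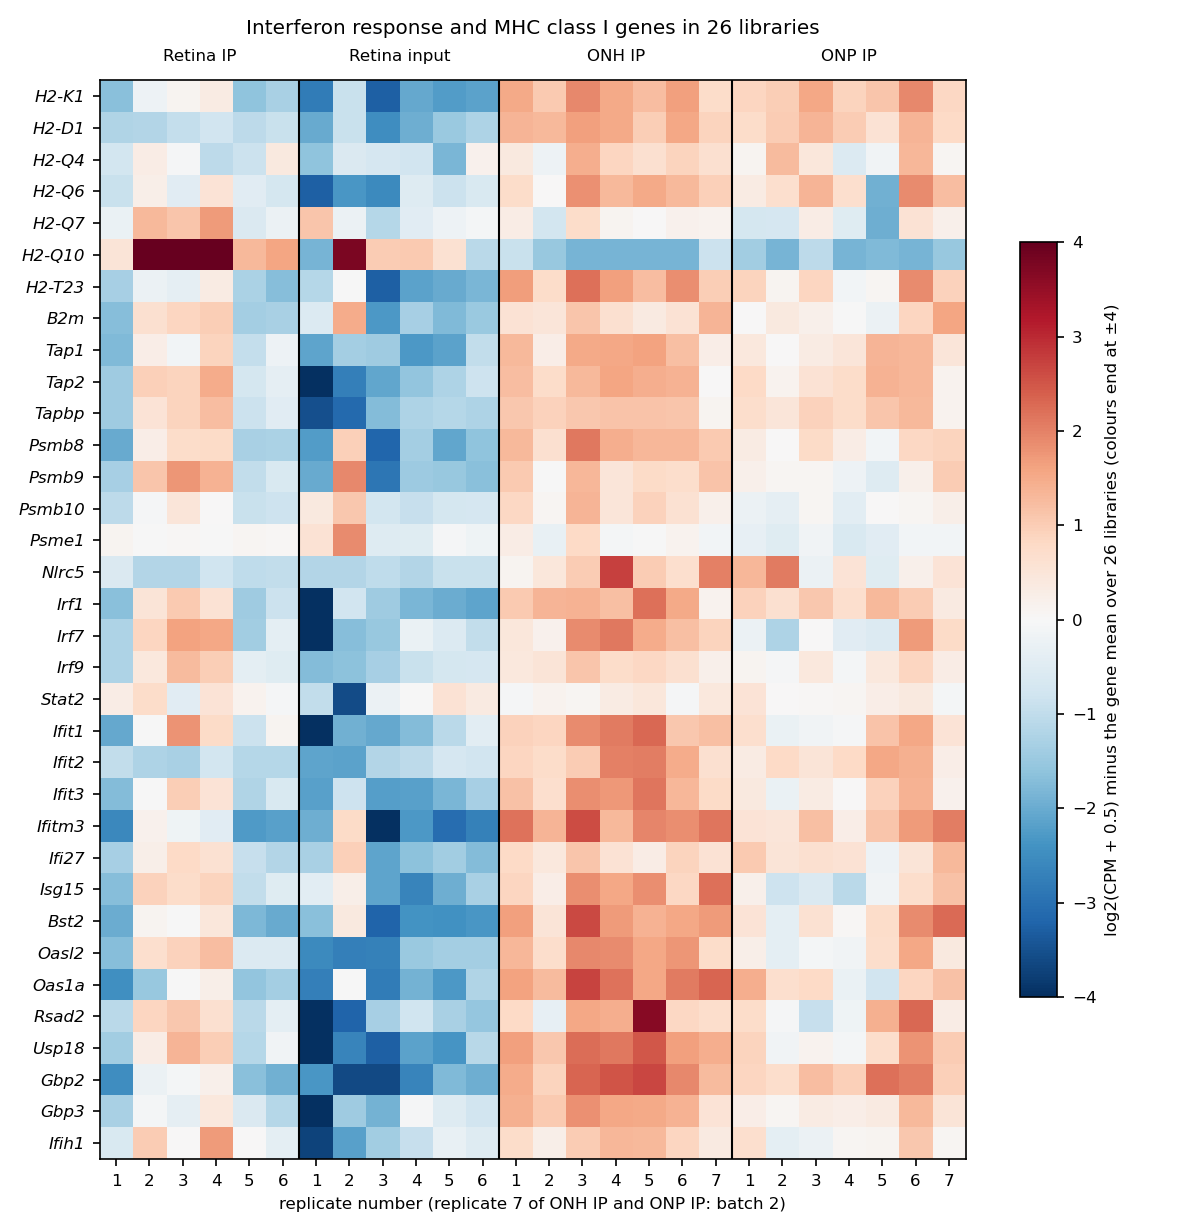
Heat map of the 34 members (down the page, by role) in the 26 libraries (across, by group and replicate number); colour is log2(CPM + 0.5) minus the gene's mean over the 26 libraries, ending at 4 on either side. The ONH IP columns are above the mean for most members, H2-Q10 is above it in retinal IP alone among the IP groups, and retinal IP replicates 2, 3 and 4 stand above replicates 1, 5 and 6.

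In IP RNA of the retina, 13 members fell and 1 rose relative to IP RNA of the ONH. Of 34 members tested, 13 fell in retinal IP against ONH IP (38.2%; 21.1% of all 16355 genes tested fell) and 1, H2-Q10, rose (12.7% of all genes rose). These calls use edgeR's quasi-likelihood test with sequencing batch as a term, at a Benjamini-Hochberg adjusted p under 0.05 over all genes. Positive log2 fold changes were found for 6 members and for 45.6% of all genes, and the median was -0.95 over the members, against -0.13 over all genes. In 10 members every retinal IP library lay below every ONH library, against 14.1% of all genes, and in 1 every retinal library lay above, against 8.77%. By role, 3 heavy chains, 1 of 4 loading genes, 1 of 4 immunoproteasome genes, 1 of 5 transactivators and 7 of 13 effectors fell, and the RNA sensor Ifih1 was not called.

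Among the heavy chains, H2-D1, a classical chain that presents peptides to T cells, had 307, 349 and 410.0 CPM in retinal IP, against 1294, 1821 and 2208 CPM in ONH IP. The groups did not overlap, and the highest retinal library held less than a lone bridging library, ONH replicate 7, which was the lowest of its group. H2-D1 fell by 1.97 ± 0.22 (SE) on the log2 scale (edgeR adjusted p = 1.51e-06). H2-K1, the other classical chain, had 47.3, 97.1 and 192 CPM in retinal IP, against 257, 434 and 579 CPM in ONH IP, again without overlap. It fell by 1.37 ± 0.44 (edgeR adjusted p = 0.0213). H2-T23, the nonclassical chain Qa-1 that is read by receptors of natural killer cells, had 18.1, 36.4 and 75.9 CPM in retinal IP, against 102, 192 and 284 CPM in ONH IP. It too separated the groups and fell by 1.91 ± 0.52 (edgeR adjusted p = 0.00774). Summed over the 7 heavy chains, retinal IP libraries held 393 to 817 CPM and ONH libraries 1698 to 3118 CPM.

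H2-Q10, a nonclassical chain known chiefly as a soluble product of mouse liver, was the exception. It had 59, 1578, 903, 1952, 69 and 76 counts in retinal IP replicates 1 to 6, against 9, 2, 0, 0, 0, 0 and 11 counts in ONH replicates 1 to 7. On the CPM scale this was 2.10, 24.5 and 97.2 in retinal IP, against 0.0, 0.0 and 0.4996 in ONH IP. The retinal libraries were split, with replicates 2, 3 and 4 at 44.2 CPM or more and replicates 1, 5 and 6 at 4.92 CPM or less, yet all lay above ONH. H2-Q10 rose by 6.58 ± 1.83 on the log2 scale (edgeR adjusted p = 0.00925), a fitted size that depends on the prior count because most nerve libraries were at 0. The call was lost without ONH replicate 7, without ONP replicate 7 and within batch 2 alone (edgeR adjusted p = 0.271). The other Q-region chains were not called: H2-Q4 stayed at 4.37 CPM or less in every IP library, H2-Q6 had a median of 5.29 CPM in retinal IP and 18.8 CPM in ONH IP, and H2-Q7 had a median of 14.05 CPM in retinal IP and 10.1 CPM in ONH IP. Between 22.8% and 50.3% of the 31-base stretches in each heavy chain's transcripts also occur in other genes (GENCODE M21). The largest overlap of H2-Q10 was with H2-Q7 (21.9%), so reads could have been divided among these chains by the authors' quantification and their individual values are uncertain.

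Of the light chain and loading genes, B2m, the beta-2 microglobulin shared by all class I complexes, had 47.6, 154 and 310.0 CPM in retinal IP, against 201, 233 and 407 CPM in ONH IP. Retinal replicates 2, 3 and 4 reached the ONH range while replicates 1, 5 and 6 stayed at 63.3 CPM or less. B2m fell by 1.53 ± 0.55 (edgeR adjusted p = 0.0365), a call lost in 11 of 26 alternative settings. Tap1, a subunit of the peptide transporter, had 4.56, 14.97 and 31.5 CPM in retinal IP, against 20.4, 41.8 and 52.3 CPM in ONH IP, with a log2 fold change of -0.71 ± 0.53 that did not pass (edgeR adjusted p = 0.32). Its partner Tap2 had medians of 51.0 CPM in retinal IP and 96.4 CPM in ONH IP, and the loading chaperone tapasin (Tapbp) 219 and 428 CPM. With the batch term their log2 fold changes were 0.24 and 0.10, both uncalled. ONH replicate 7 was the lowest ONH library for both, at 39.1 and 217 CPM. Over the 26 alternatives the fold change ran between -0.81 and 0.66 for Tap2 and between -0.76 and 0.37 for Tapbp.

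Psmb8, an immunoproteasome catalytic subunit, had 8.30, 28.2 and 59.2 CPM in retinal IP, against 54.1, 87.9 and 153 CPM in ONH IP. The groups met at their edges, and Psmb8 fell by 1.56 ± 0.56 (edgeR adjusted p = 0.039), a call also lost in 11 of 26 settings. The other catalytic subunits Psmb9 and Psmb10 and the activator subunit Psme1 were uncalled, with log2 fold changes of -0.75, -0.91 and -0.07. Psme1 was the most even member within retinal IP, at 80.2 to 87.0 CPM.

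Among the transactivators, Nlrc5, the regulator of class I gene transcription, was at or near 0 in retinal IP. It had 7, 0, 0, 3, 1 and 1 counts in retinal IP replicates 1 to 6, equal to at most 0.249 CPM, against 0.712, 1.76 and 7.04 CPM in ONH IP. No retinal library reached the lowest ONH library, and Nlrc5 fell by 4.94 ± 1.03 (edgeR adjusted p = 0.00111). As for H2-Q10, the fitted size depends on the prior count, because the retinal counts were at or near 0. The remaining transactivators were uncalled. Irf7, which amplifies type I interferon signalling, had 4.61, 16.9 and 40.7 CPM in retinal IP, against 14.8, 30.3 and 58.0 CPM in ONH IP. Irf9, the DNA-binding part of the ISGF3 complex, had 16.3, 41.5 and 96.2 CPM in retinal IP, against 45.1, 61.5 and 84.9 CPM in ONH IP. Stat2, its partner in that complex, had 13.3, 21.7 and 31.01 CPM in retinal IP, against 17.8, 20.4 and 25.6 CPM in ONH IP. All overlapped between the groups, as did Irf1, and the log2 fold changes lay between -0.76 for Irf7 and 0.07 for Stat2. The RNA sensor Ifih1 (MDA5), which binds long double-stranded RNA, had 3.81, 6.17 and 20.7 CPM in retinal IP, against 7.16, 11.3 and 15.8 CPM in ONH IP, with a fold change of 0.06.

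**Figure D2:**
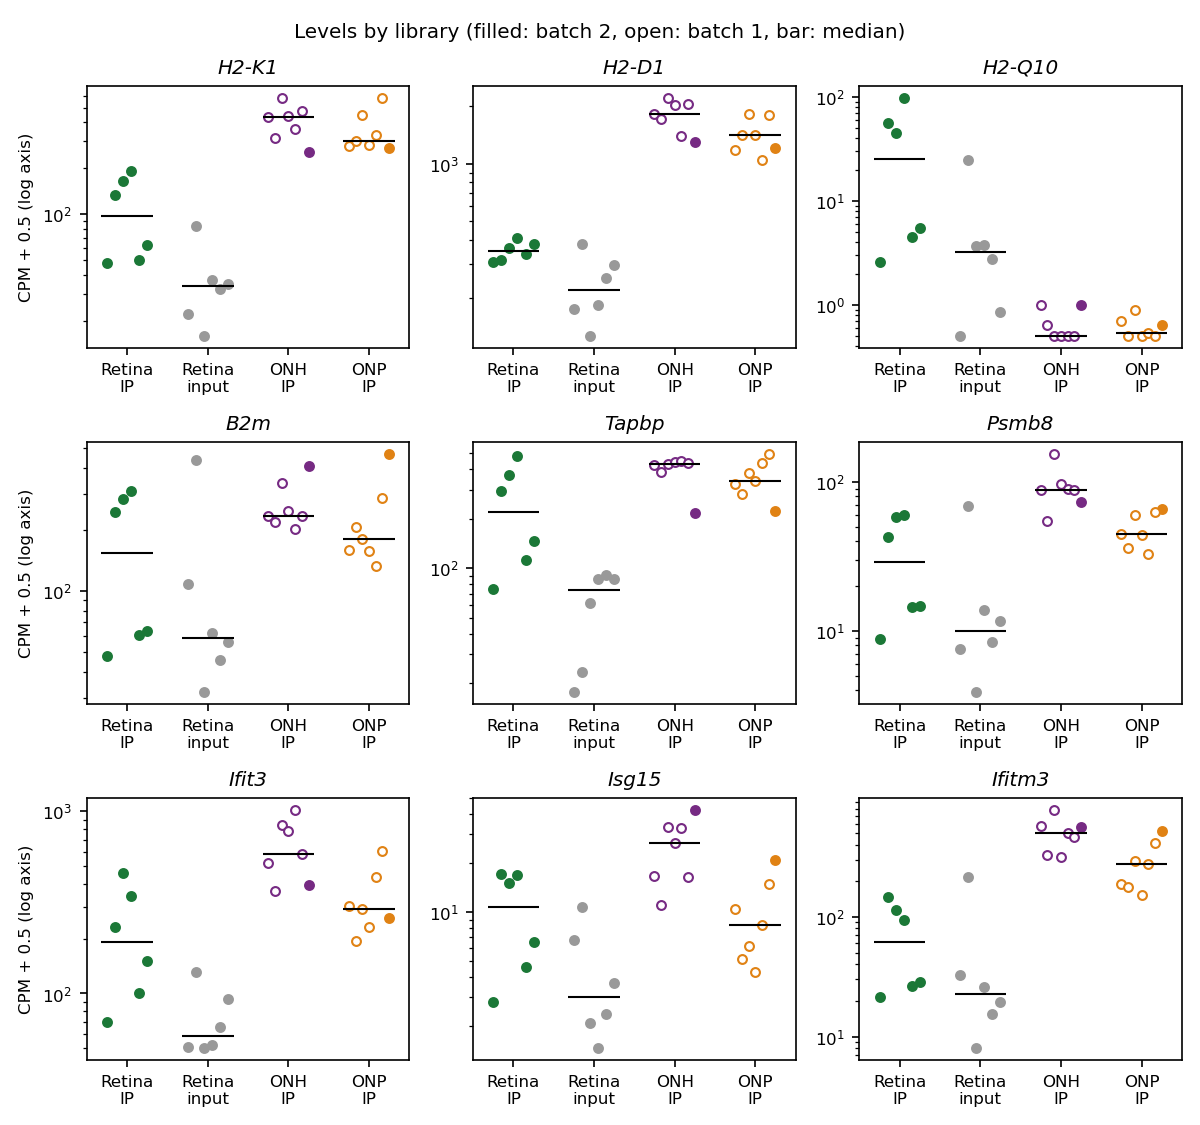
CPM + 0.5 on log axes for 9 members, 1 point per library, with the IP groups of retina, ONH and ONP and the retina input set side by side; filled points are batch 2, open points batch 1, and the bar is the median. H2-D1 shows retinal IP at 307 to 410.0 CPM, clear of both nerve groups, H2-Q10 shows the reverse order, and B2m, Psmb8, Isg15 and Ifitm3 show the split among retinal IP libraries.

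All 13 effectors had negative log2 fold changes in retinal IP against ONH IP, between -0.68 and -3.53, and stayed negative in all 26 alternative settings run. Ifitm3, a membrane protein that blocks virus entry, had 20.8, 60.6 and 144 CPM in retinal IP, against 313, 498 and 780 CPM in ONH IP. It did not overlap and fell by 3.38 ± 0.58 (edgeR adjusted p = 0.000217). Bst2 (tetherin), which holds budding virus at the cell surface, had 5.18, 14.4 and 30.9 CPM in retinal IP, against 32.8, 71.9 and 144 CPM in ONH IP. Its groups were separate but close, and it fell by 3.01 ± 0.68 (edgeR adjusted p = 0.00219). Oas1a, which makes the 2-5A signal for RNase L, had 0.214, 0.954 and 4.13 CPM in retinal IP, against 8.81, 16.1 and 24.9 CPM in ONH IP. It was low in every retinal library and fell by 3.53 ± 0.70 (edgeR adjusted p = 0.000742), although 68.7% of the 31-base stretches in its transcripts are shared with Oas1g. Ifit2, which binds foreign RNA, had 18.1, 19.9 and 26.7 CPM in retinal IP, against 70.5, 92.3 and 188 CPM in ONH IP. It varied little among retinal libraries and fell by 1.76 ± 0.34 (edgeR adjusted p = 0.000617).

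Both guanylate-binding GTPases among the members also fell. Gbp2 had 5.31, 18.5 and 37.6 CPM in retinal IP, against 60.6, 125 and 208 CPM in ONH IP, and fell by 2.11 ± 0.59 (edgeR adjusted p = 0.00944). Gbp3 had 11, 19.8 and 37.1 CPM in retinal IP, against 40.2, 74.6 and 99.6 CPM in ONH IP, and fell by 1.39 ± 0.39 (edgeR adjusted p = 0.0104). Neither overlapped. Isg15, the ubiquitin-like modifier, had 2.31, 10.3 and 16.7 CPM in retinal IP, against 10.5, 26.04 and 41.9 CPM in ONH IP. Its groups overlapped at the 3 highest retinal libraries, and it fell by 2.26 ± 0.61 with the batch term (edgeR adjusted p = 0.00745). Ifit3, a partner of Ifit1 in RNA binding, had 69.6, 191 and 460.1 CPM in retinal IP, against 367, 582 and 1019 CPM in ONH IP. The 2 groups overlapped and Ifit3 was uncalled (log2 fold change -0.97 ± 0.56, edgeR adjusted p = 0.185), as were Ifit1, Ifi27, Oasl2, Rsad2 and Usp18. Usp18, the protease that removes Isg15 from proteins and damps interferon signalling, came nearest to the threshold, with 9.08, 26.4 and 63.6 CPM in retinal IP, against 52.3, 78.3 and 139.5 CPM in ONH IP (-1.49 ± 0.61, edgeR adjusted p = 0.0647). Ifit3 shares 61.8% of its 31-base stretches with its copy Ifit3b.

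Within batch 2 the comparison rests on 6 retinal IP libraries and ONH replicate 7. There 26 of 34 members had negative log2 fold changes and 2 were called lower (5.88%, against 3.62% of all genes), H2-D1 at -1.70 and Ifit2 at -1.57. Without ONH replicate 7 the count was 10 lower (15.3% of all genes), and without ONP replicate 7, which helps set the batch term, it was 6 (13.9%). In batch 2 alone the other 11 members that fell lost their call. Without ONP replicate 7 the calls of H2-K1, H2-T23, B2m, Psmb8, Isg15, Gbp2 and Gbp3 were lost. Without ONH replicate 7 those of H2-K1, B2m, Psmb8 and Gbp2 were lost, and Psmb10, uncalled in the main fit, was called lower. H2-D1 and Ifit2 were called in all 26 alternatives. Summed microglial markers were 133 to 252 CPM in retinal IP and 386 to 3507 CPM in ONH IP, and 11 of these 12 markers fell. Oligodendrocyte markers summed to 49.7 to 154 CPM in retinal IP and 27740 to 72550 CPM in ONH IP, and fibroblast markers to 26.5 to 148 CPM in retinal IP and 551 to 1243 CPM in ONH IP. The 10 leukocyte markers summed to at most 2.31 CPM in retinal IP and 16.7 CPM in ONH IP. Rod markers summed to 560.5 to 2264 CPM in retinal IP. In ONH IP they summed to 36.2 to 670 CPM in replicates 1 to 6 and to 40850 CPM in replicate 7. With the batch term, 8 of 8 rod markers fell in retinal IP (median log2 fold change -4.45). Yet replicate 7 was the only ONH library above the retinal range. In ONH replicate 5, whose microglial sum of 386 CPM was the lowest among ONH libraries, 22 of the 34 members lay above every retinal IP library. The share of all genes that did so in this single library was not computed, so the count has no background to be read against. The part of microglial, oligodendrocyte, fibroblast and rod RNA in the member counts was not tested.

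Against ONP IP the share of members that fell was near that of all genes. Here 7 of 34 members fell in retinal IP (20.6%; 19.9% of all genes fell), and H2-Q10 rose (12.9% of all genes rose). Positive log2 fold changes were found for 12 members and for 46.3% of all genes, and the median was -0.32 over the members, against -0.10 over all genes. Every retinal IP library lay below every ONP library in 6 members (16.5% of all genes) and above every ONP library in 2 (11.8% of all genes). H2-Q10 had 4, 0, 7, 0, 1, 0 and 2 counts in ONP replicates 1 to 7 and rose by 6.82 ± 1.94 (edgeR adjusted p = 0.0106). This comparison shares its retinal libraries with the one against ONH.

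The members that fell against ONP were H2-K1, H2-D1, Nlrc5, Ifit2, Ifitm3, Bst2 and Oas1a. H2-D1 had 307, 349 and 410.0 CPM in retinal IP, against 1051, 1415 and 1827 CPM in ONP IP, and fell by 1.65 ± 0.22 (edgeR adjusted p = 9.24e-06). H2-K1 had 47.3, 97.1 and 192 CPM in retinal IP, against 271, 303 and 577 CPM in ONP IP, and fell by 1.18 ± 0.43 (edgeR adjusted p = 0.0422). Both separated the groups, but the H2-K1 call was lost in 18 of 26 alternatives and the H2-D1 call in none. Ifitm3 had 20.8, 60.6 and 144 CPM in retinal IP, against 153, 274 and 523 CPM in ONP IP, and fell by 2.53 ± 0.56 (edgeR adjusted p = 0.00178). Ifit2 had 18.1, 19.9 and 26.7 CPM in retinal IP, against 53.7, 78.3 and 132 CPM in ONP IP, and fell by 1.29 ± 0.34 (edgeR adjusted p = 0.0072). Neither gene overlapped between the groups. Nlrc5 was at most 0.249 CPM in retinal IP, against 0.299, 1.14 and 4.25 CPM in ONP IP. It fell by 4.21 ± 1.09 (edgeR adjusted p = 0.00596), a size that again depends on the prior count. Bst2 had 17.2, 34.6 and 110 CPM and Oas1a 1.80, 6.34 and 10.1 CPM in ONP IP, each overlapping the retinal values given above, and they fell by 2.25 ± 0.63 and 2.14 ± 0.71 (edgeR adjusted p = 0.00975 and 0.0252).

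The remaining members were uncalled against ONP. B2m had 132, 179 and 469 CPM in ONP IP and a log2 fold change of -1.23 ± 0.54 (edgeR adjusted p = 0.0846). Gbp2 did not overlap, at 52.8, 63.5 and 151 CPM in ONP IP, but missed the threshold with -1.53 ± 0.59 (edgeR adjusted p = 0.053). Irf7, Irf9, Ifit1, Ifit3, Oasl2 and Rsad2 had log2 fold changes between -0.03 and 0.28. Psme1 lay above every ONP library in retinal IP, at 80.2 to 87.0 CPM against 53.2 to 75.7 CPM, with an uncalled fold change of 0.38 (edgeR adjusted p = 0.233). Within batch 2, with ONP replicate 7 alone, 1 member was called lower (H2-D1, -1.55; 4.71% of all genes) and none higher (4.06% of all genes). Without ONP replicate 7 the counts were 2 lower, H2-D1 and Nlrc5 (9.76% of all genes), and 0 higher (3.49% of all genes). Markers of some other cell types also fell, but 0 of 8 rod markers were called. Of 10 endothelial markers 6 fell and 1 rose, and of 10 astrocyte markers 4 fell and 1 rose. Summed microglial markers were 133 to 252 CPM in retinal IP and 462 to 4813 CPM in ONP IP, and 12 of 12 fell. Oligodendrocyte markers summed to 49.7 to 154 CPM in retinal IP and 36490 to 123300 CPM in ONP IP, and 8 of 8 fell. Fibroblast markers summed to 26.5 to 148 CPM in retinal IP and 233 to 1313 CPM in ONP IP, and 7 of 8 fell. In ONP replicate 5, with the lowest microglial sum of its group at 462 CPM, 10 of the 34 members lay above every retinal IP library. Again the share of all genes that did so in this single library was not computed. The part of these cell types in the ONP comparison was not tested.

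**Figure D3:**
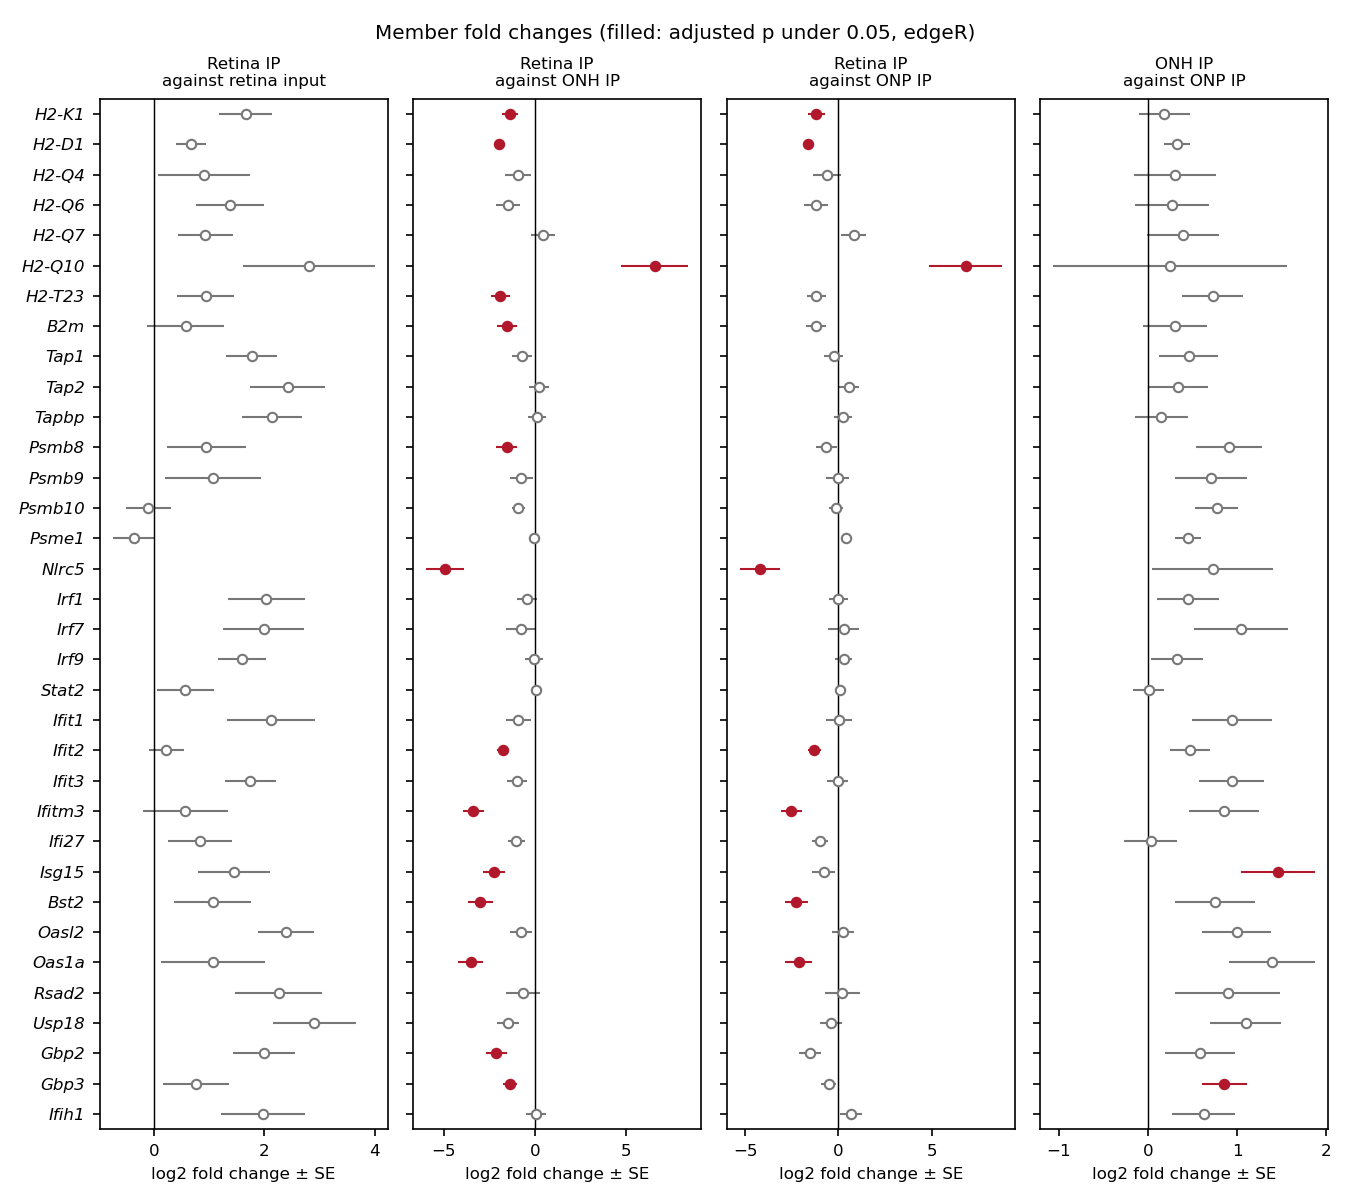
Log2 fold change ± SE (edgeR) of each member in the 4 comparisons; filled red points have an adjusted p under 0.05. Called members lie left of 0 against ONH IP (13) and ONP IP (7) except H2-Q10, and in ONH IP against ONP IP all 34 points lie right of 0 with Isg15 and Gbp3 called, although H2-Q10, Ifi27 and Stat2 changed sign under some alternative settings.

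Within the nerve, every member had a positive log2 fold change in ONH IP against ONP IP, although H2-Q10, Ifi27 and Stat2 changed sign in 3, 3 and 9 alternative settings. Few members were called in this fit, which did not pair libraries by replicate number. Isg15 and Gbp3 rose (2 of 34; 4.43% of all genes rose) and none fell (3.04% of all genes fell). Of all genes 51.5% had a positive fold change, and the medians were 0.60 for the members and 0.02 for all genes. At an unadjusted p under 0.05, 13 members were higher and 0 lower, against 12.6% and 10.7% of all genes. In no member did every ONH library lie above every ONP library, or below it, against 1.14% and 0.801% of all genes.

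Isg15 had 10.5, 26.04 and 41.9 CPM in ONH IP, against 3.79, 7.86 and 20.3 CPM in ONP IP, and rose by 1.46 ± 0.42 (edgeR adjusted p = 0.0372). Gbp3 had 40.2, 74.6 and 99.6 CPM in ONH IP, against 28.9, 35.2 and 69.1 CPM in ONP IP, and rose by 0.85 ± 0.25 (edgeR adjusted p = 0.0454). Most ONH libraries were above most ONP libraries for both genes, with ONP replicate 6 highest for Gbp3 and replicate 7 highest for Isg15 among ONP libraries. Members just short of the threshold were Psmb10, with 112.5 CPM in the median ONH library and 73.9 CPM in the median ONP library (log2 fold change 0.77 ± 0.24, edgeR adjusted p = 0.0524), Psme1 (0.45 ± 0.15, adjusted p = 0.0673) and Oas1a (1.39 ± 0.48, adjusted p = 0.0822). The classical heavy chains differed little, with fold changes of 0.33 for H2-D1 and 0.18 for H2-K1. Stat2 and Ifi27 were nearest to 0, at 0.01 and 0.03.

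The counts in this comparison moved with the choice of libraries. Among the 12 batch 1 libraries alone, 11 of 33 members rose (33.3%, against 8.57% of all genes) and none fell (8.01% of all genes). They were the immunoproteasome genes Psmb8, Psmb9, Psmb10 and Psme1 and the effectors Gbp3, Ifit3, Ifitm3, Isg15, Oas1a, Oasl2 and Usp18. Psmb8 in this fit had a log2 fold change of 1.03 ± 0.23 (edgeR adjusted p = 0.0116) and Psmb9 of 0.80 ± 0.22 (adjusted p = 0.0252). No heavy chain and no loading gene was among them. Batch 2 holds 1 library of each group and gave no test. Leaving out 1 of the 20 IP libraries at a time gave between 0 and 4 members (2.51% to 5.25% of all genes). The count was 0 without any of ONH replicates 1, 3, 4 or 5 or ONP replicates 1 to 5, 1 without ONH replicate 6 or retinal IP replicate 5, and 4 without ONH replicate 2 or retinal IP replicate 1. DESeq2 called 6 higher (7.04% of all genes) and 0 lower (5.45% of all genes).

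Individual nerve libraries ranged widely. Ifit3 had 521, 367, 838, 780, 1019, 582 and 394 CPM in ONH replicates 1 to 7, against 303, 193, 291, 233, 435, 603 and 261 CPM in ONP replicates 1 to 7. ONH replicate 5 was the highest and ONP replicate 6 exceeded 4 of the ONH libraries. Rsad2 (viperin), an antiviral enzyme, had 103 CPM in ONH replicate 5, against 6.27 to 24.3 CPM in the other ONH libraries. Both replicates numbered 5 had the fewest microglial reads of their groups, at 386 CPM in ONH and 462 CPM in ONP, while the other nerve libraries had 2013 CPM or more. In these libraries Gbp2 was highest of each group, at 208 CPM in ONH replicate 5 and 151 CPM in ONP replicate 5, and B2m was lowest of each group, at 201 CPM in ONH replicate 5 and 132 CPM in ONP replicate 5. Microglial markers were not called between ONH and ONP (0 of 12), and 8 of 8 rod markers rose in ONH IP, where replicate 7 held 40850 CPM of them. Oligodendrocyte markers summed to 27740 to 72550 CPM in ONH IP and 36490 to 123300 CPM in ONP IP, with 2 of 8 called lower and a median log2 fold change of -1.005. Fibroblast markers summed to 551 to 1243 CPM in ONH IP and 233 to 1313 CPM in ONP IP, with 0 of 8 called and a median of 0.81. The part of these cell types in the nerve comparison was not tested.

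**Figure D4:**
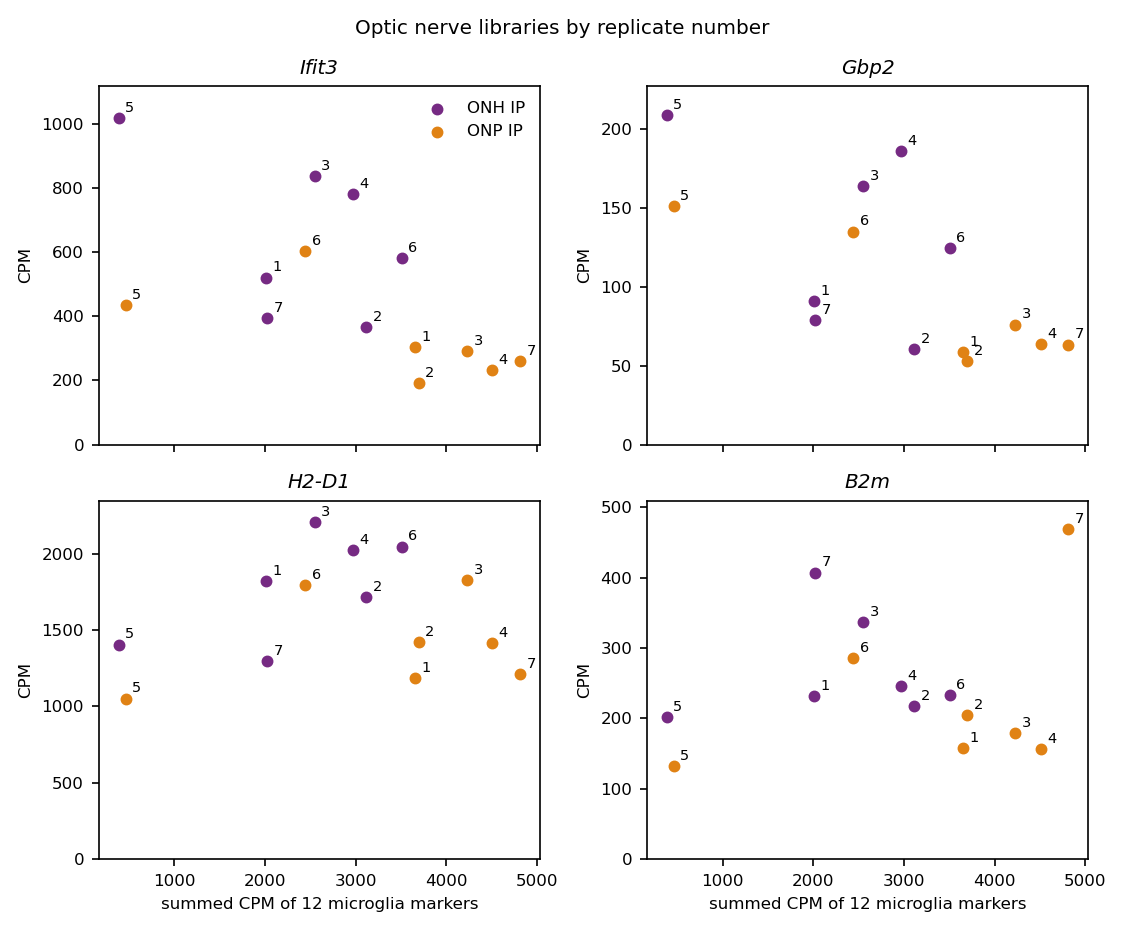
CPM of Ifit3, Gbp2, H2-D1 and B2m (vertical axes) against the summed CPM of 12 microglial markers (horizontal axes) in the 14 nerve libraries, numbered by replicate. The libraries numbered 5 sit at the far left with 386 and 462 CPM of microglial markers, where Gbp2 is highest of each group (208 CPM in ONH, 151 CPM in ONP) and B2m lowest (201 CPM in ONH, 132 CPM in ONP). Ifit3 is highest in ONH replicate 5 (1019 CPM) and ONP replicate 6 (603 CPM), and H2-D1 is lowest in ONH replicate 7 (1294 CPM) and ONP replicate 5 (1051 CPM).

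In retinal IP against retina input most members were higher, but none passed the adjusted threshold. Of 33 members tested (Nlrc5 was under the count filter), edgeR called 0 higher and 0 lower (0.0% of all 15181 genes were called in either direction). At an unadjusted p under 0.05, 18 members were higher and 0 lower, against 11.7% and 10.4% of all genes. Positive log2 fold changes were found for 31 members and for 51.0% of all genes, with medians of 1.37 over the members and 0.02 over all genes. DESeq2 called 14 members higher (6.41% of all genes) and 0 lower (7.3% of all genes). No member separated the groups, against 1.65% of all genes with every retinal IP library above every input and 2.9% with every one below.

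The 4 largest log2 fold changes were those of Usp18, H2-Q10, Tap2 and Oasl2. Usp18 had 9.08, 26.4 and 63.6 CPM in retinal IP, against 0.0826, 3.98 and 11.2 CPM in input (log2 fold change 2.91 ± 0.75, edgeR adjusted p = 0.0666). Oasl2, related to the OAS enzymes, had 18.4, 70.0 and 144 CPM in retinal IP, against 8.71, 15.6 and 23.6 CPM in input (2.38 ± 0.51, edgeR adjusted p = 0.057). Tap2 had 14.3, 51.0 and 109 CPM in retinal IP, against 0.579, 10.8 and 21.5 CPM in input (2.42 ± 0.68, edgeR adjusted p = 0.0707). For Usp18, Oasl2 and Tap2 the lowest retinal IP library lay inside the input range. By size, Rsad2 (2.25), Tapbp (2.14), Ifit1 (2.12), Irf1 (2.04), Gbp2 (1.99), Irf7 (1.98), Ifih1 (1.97) and Tap1 (1.77) came next, all uncalled. H2-Q10 had 0, 178, 52, 54, 45 and 7 counts in input replicates 1 to 6 and a fold change of 2.81 ± 1.19 (edgeR adjusted p = 0.181).

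The 4 immunoproteasome genes had fold changes of 0.94 (Psmb8), 1.06 (Psmb9), -0.11 (Psmb10) and -0.37 (Psme1), with 0 of 4 at an unadjusted p under 0.05, and Psmb10 and Psme1 changed sign in 4 and 2 alternative settings. Input replicate 2 held 575 CPM over the 4 genes, against 105 to 227 CPM in the other inputs and 135 to 288 CPM in retinal IP. That library was also the highest input for B2m (439 CPM), Ifitm3 (215 CPM) and summed microglial markers (1626 CPM, against 209 to 412 CPM in the other inputs). Without input replicates 1 and 2, the fold changes were 2.01 (Psmb8), 2.78 (Psmb9), 0.59 (Psmb10) and 0.40 (Psme1), with edgeR adjusted p between 0.094 and 0.338. In that setting 0 members were called and 26 were higher at an unadjusted p under 0.05 (14.5% of all genes).

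The members divided the retinal IP libraries in the same way as the astrocyte markers. In 24 of the 33 tested members replicates 2, 3 and 4 all lay above replicates 1, 5 and 6, against 19.98% of all genes. Ifit3 had 231, 460.1 and 341 CPM in replicates 2, 3 and 4, against 69.6, 99.7 and 151 CPM in replicates 1, 5 and 6. The exceptions were H2-D1, H2-Q4, H2-Q6, Psme1, Stat2, Ifit1, Ifit2, Oas1a and Ifih1. Microglial markers ran the other way, at 133 to 179 CPM in replicates 2, 3 and 4 and 205 to 252 CPM in replicates 1, 5 and 6. Summed fibroblast markers also divided the libraries this way, at 86.4 to 148 CPM in replicates 2, 3 and 4 and 26.5 to 35.6 CPM in replicates 1, 5 and 6. So did mitochondrial reads, at 1.03%, 2.11% and 2.23% in replicates 2, 3 and 4 and 0.384%, 0.155% and 0.259% in replicates 1, 5 and 6. The part of the amount of astrocyte RNA, or of these other differences, in each library was not tested. Without retinal IP replicate 1, edgeR called 7 members higher (2.23% of all genes), namely Tap1, Tapbp, Irf9, Ifit3, Oasl2, Usp18 and Gbp2, and without replicate 5 it called 1 (1.45% of all genes).

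Other genes of the pathway were taken from 8 lists. Their counts are to be read against the 21.1% of all genes that fell and the 12.7% that rose in retinal IP against ONH IP, and the 19.9% and 12.9% against ONP IP. Of 37 further interferon-stimulated genes, 15 fell and 1 rose in retinal IP against ONH IP, led by Ifi27l2a (-6.57 ± 0.64, edgeR adjusted p = 3.05e-07) and Sp100 (-5.92 ± 1.02, adjusted p = 0.000221), with the RNA editor Adar higher (2.09 ± 0.52, adjusted p = 0.0043). Against ONP IP the same 37 genes gave 8 lower and 2 higher, beside 19.9% and 12.9% of all genes, with Adar and Cmpk2 higher. Of 10 nucleic acid sensors, Zbp1, a sensor of Z-form nucleic acid, fell against ONH (-6.50) and ONP (-4.67), and the kinase Tbk1 rose (0.85 and 0.80). Of 9 receptors and kinases, 3 fell against ONH, led by Jak2 (-1.82) and followed by Il10rb (-1.02) and the interferon-gamma receptor chain Ifngr1 (-0.99). Against ONP, Jak2 (-2.36) and Ifngr1 (-1.09) fell and Ifngr2 rose (0.70). Both chains of the type I receptor were uncalled, and Ifnar1 had medians of 23.9 CPM in retinal IP, 58.4 CPM in ONH IP and 71.0 CPM in ONP IP.

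Of 10 signalling factors, 4 fell and 1 rose against ONH, and 2 fell against ONP. Irf8 (-3.70 and -3.80) and Irf5 (-3.43 and -3.52), factors expressed in microglia and other myeloid cells, were the largest in both comparisons, and Pias1 rose against ONH (0.73). All 7 MHC class II genes fell in both comparisons, with Cd74, the class II invariant chain, at 0.832, 2.32 and 2.79 CPM in retinal IP, against 19.75, 126.5 and 175 CPM in ONH IP (-5.55 ± 0.77, edgeR adjusted p = 2.42e-05). These genes are also markers of antigen-presenting myeloid cells, whose microglial sums are given above. Of 12 further class I assembly genes, H2-T24 (-2.27), H2-T22 (-1.39) and Psme2 (-0.98) fell against ONH and Rfx5 rose (1.30), and against ONP H2-T24 fell (-2.26) and Rfx5 rose again. Of 11 constitutive proteasome genes Psme3 alone changed, rising against ONH (1.07) and ONP (1.13). No interferon ligand passed the count filter in any comparison (0 of 8 tested).

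Between ONH IP and ONP IP, 7 of the 104 listed pathway genes rose and none fell, beside 4.43% and 3.04% of all genes. The 8 interferon ligands on these lists were under the count filter and were not tested. Those that rose were Gbp4 (1.81 ± 0.40, edgeR adjusted p = 0.00969), Ifi35 (1.36), Cmpk2 (1.02), Zbp1 (1.83), Il10rb (0.77), Ptpn2 (0.65) and H2-T22 (0.68). Gbp4 had 10.6, 17.5 and 25.7 CPM in ONH IP, against 2.34, 4.11 and 8.92 CPM in ONP IP, and every ONH library lay above every ONP library for Gbp4 and Ifi35. In retinal IP against input no pathway gene was called, and 16 of 32 further interferon-stimulated genes tested were higher at an unadjusted p under 0.05 and 1 was lower, against the 11.7% and 10.4% of all genes.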

How the data were processed

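RNA-seq was deposited for 26 libraries (6 retinal IP, 7 ONH IP, 7 ONP IP and 6 retina input). The deposited table holds estimated counts per Ensembl gene, given as whole numbers by the authors. The submitters' processing notes name Salmon 1.6.0 and the genome build mm10. The annotation release and the step from transcripts to genes are not given in the sources used here. Near-identical genes can exchange reads in such estimates, so 31-base stretches shared between genes were counted in GENCODE M21 transcripts. Total counts per library ran between 11164619 and 27431026, which limits precision for genes of a few CPM.

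Counts were tested with edgeR 4.0.16 in R 4.3.3 (TMM, genes kept by filterByExpr at its settings of 10 for the minimum count and 15 for the total, quasi-likelihood F test, Benjamini-Hochberg adjustment over all genes tested, threshold 0.05, two-sided). Retinal IP was compared with input on those 12 libraries. The 3 comparisons among IP groups came from 1 fit of 20 libraries with batch as a term. The SE beside an edgeR fold change is the absolute log2 fold change divided by the square root of its F statistic. CPM use TMM factors over all 26 libraries. Members under a filter were kept in the level tables, and Nlrc5 was the only member under it, in retinal IP against input. The test was run on simulated data beforehand. Alternatives were DESeq2 1.42.0, RLE factors, no filter, no batch term, single batches, the replicate number as a block, and each library left out in turn. Symbols and promoters came from RefSeq tables and figures from matplotlib 3.10.9.

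Members were fixed by symbol. Full values are given for members called in at least 1 comparison with 10 CPM or more in the higher group, for the 4 largest fold changes per comparison and direction, and for 14 chosen genes. In each other list up to 2 called genes per direction are named, and further ones were named after their values were seen. Members and lists were chosen with earlier results of these data known.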

Additional observations from a re-analysis of the deposited data

Results flagged for a closer look

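Within 136 sets of 6 or 7 libraries (each member in each group), the most extreme library was tested for its gap to the nearest other by Dixon's criterion at 95%. Normally distributed values meet it by chance in about 1 set in 20, and the CPM used here were not log-transformed. The criterion was met 19 times, and 10 of these concern retina input replicate 2 as the highest of 6 inputs. There H2-K1 reached 82.6 CPM (15.3 to 36.4 CPM in the other inputs), H2-Q10 24.2 CPM (0 to 3.27), B2m 439.3 CPM (31.4 to 108.1), Psmb8 68.4 CPM (3.39 to 13.3) and Psmb9 51.7 CPM (1.35 to 4.48). In the same library Psme1 reached 300.6 CPM (56.3 to 121 in the other inputs), Ifitm3 214.6 CPM (7.51 to 32.3), Ifi27 196.1 CPM (22.96 to 40.5), Bst2 29.5 CPM (2.03 to 6.78) and Oas1a 3.40 CPM (0.0616 to 1.19). This library also had 1626 CPM of summed microglial markers and 15.2% mitochondrial reads. Their part was not tested. Retina input replicate 1 was the highest input for H2-Q7, at 20.3 CPM against 3.88 to 8.71 CPM in the others.

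Among the nerve libraries, ONH replicate 5 stood apart for the antiviral enzyme Rsad2, at 103.3 CPM against 6.27 to 24.3 CPM in the other ONH libraries. ONH replicate 3 was high for Psmb8 (153 CPM, others 54.1 to 95.9) and Bst2 (143.8 CPM, others 32.8 to 75.0). ONH replicate 7 was low for tapasin (Tapbp), at 217 CPM against 382.1 to 446.5 CPM. ONP replicate 6 was high for H2-T23 (226.8 CPM, others 56.8 to 114.8), Oasl2 (179.4 CPM, others 46.8 to 99.95) and Gbp3 (69.1 CPM, others 28.9 to 39.8). ONP replicate 7 was high for Psmb9, at 27.3 CPM against 9.13 to 15.4 CPM in the other ONP libraries.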

How the results depend on the processing

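Over 36 alternative fits, 2893 of 3243 member values kept their direction and their side of the threshold, 98 called values lost the call, 122 uncalled ones gained it, 130 uncalled ones changed sign and 0 called ones did. In retinal IP against input, where edgeR called 0 members, DESeq2 and a fit of all 26 libraries with batch each gave 14 higher (6.41% and 8.26% of all genes), no filter gave 1 (0.544%), and leaving out single libraries gave 0 to 7. In retinal IP against ONH, batch 2 alone gave 0 higher and 2 lower (0.628% and 3.62% of all genes), no batch term 22 lower (28.1%), and single libraries left out 0 to 1 higher and 6 to 16 lower. In retinal IP against ONP, batch 2 alone gave 0 higher and 1 lower (4.06% and 4.71%), no batch term 3 higher and 11 lower (25.8% and 28.3%), and single libraries left out 0 to 1 higher and 2 to 10 lower. Without both bridging libraries and without a batch term, a setting chosen after seeing the data as was the one without input replicates 1 and 2, 22 members were lower against ONH (29.4% of all genes), and 3 higher and 10 lower against ONP (29.6% and 29.3%). Without those inputs 0 members were called. In ONH against ONP, DESeq2 gave 6 higher (7.04%), batch 1 alone 11 (8.57%), no batch term 1 (3.39%), no filter 0 (1.64%), and single libraries left out 0 to 4. No alternative called a member lower in retinal IP against input or in ONH against ONP. With single libraries left out, 0.0% to 2.23% of all genes were higher in retinal IP against input. Against ONH, 4.44% to 14.7% of all genes were higher and 13.9% to 22.1% lower. Against ONP, 3.49% to 14.6% were higher and 9.76% to 20.5% lower. In ONH against ONP, 2.51% to 5.25% were higher. The cause of these shifts was not tested, except that batch 2 alone leaves 1 nerve library per group, which is assumed to vary like the retinal ones.

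With replicate number as a block, 18 of 33 members tested were higher in ONH against ONP and 0 were lower. Of all 14799 genes tested in that fit, 1481 were higher and 1637 lower. In retinal IP against input the block gave 0 members higher. Same-numbered ONH and ONP libraries of batch 1 correlated at 0.0619 to 0.410 in their deviations from the group means, each best with its own number in 6 of 6, and retinal IP and input at -0.0975 to 0.231, in 5 of 6. Not every pair exceeded the 0.1 required for pairing, so the libraries were taken to share only a number, and the match of 6 of 6 is a hint from the data. For retina against nerve no block was run beside the batch term. Over all genes, retinal IP against ONH gave 121 higher and 697 lower in batch 2 alone, 3871 higher without a batch term and 722 higher and 2262 lower without ONP replicate 7, beside 2080 higher and 3452 lower as reported. ONH against ONP gave 1264 higher and 1181 lower in batch 1 alone, beside 725 and 498. Depth limits H2-Q4, Nlrc5 and H2-Q10, which had 0 to a few counts in many libraries.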
